A study of Mus musculus with 16 samples.

Results

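Desmosomes were followed through 10 mouse genes that encode their parts: the desmogleins Dsg1a, Dsg2 and Dsg3, the desmocollins Dsc1, Dsc2 and Dsc3, the plakophilins Pkp1 and Pkp3, plakoglobin (Jup) and desmoplakin (Dsp). The genes were taken by name from a list of desmosome parts, chosen with earlier results of these data known. All 10 were found among the 32989 genes of the table and among the 19049 that were abundant enough to test. The cells came from hair follicle stem cell (HFSC) organoids of C57BL/6J mice, grown for 2 weeks in a 3-dimensional culture called 3D-3C in which stem cells and progenitors are maintained together. Cells were sorted on the basal integrin α6 and on CD34, a surface marker of mouse HFSCs, into progenitors (α6+/CD34-) and HFSCs (α6+/CD34+). Each fraction came from cultures left untreated or given the acetylated polyamine N1-acetylspermidine (N1-AcSpd) for 72 h, which gives 4 groups of 4 libraries. Organoids of each of 4 mice gave 1 library to every group, so the 4 libraries of a group come from 4 animals, and the 4 groups are the same animals. The labels of the untreated libraries carry the word WT, and those of the treated libraries carry N1AcSpd in its place. No transgene or deletion is named in the labels. By the study's methods, epidermal cells for culture came from young mice of both sexes with follicles in telogen, the resting phase, and the labels give no age for the single animals. Both fractions are sorted from the same cultures, so they are populations of a culture system and not cells taken directly from skin.

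A desmosome is a spot-like junction that ties the keratin filaments of neighbouring keratinocytes together. Desmogleins and desmocollins are cadherins that span the membrane and bind each other between cells. In the cytoplasm they hold plakoglobin and plakophilins, 2 kinds of armadillo-repeat protein, and these hold desmoplakin, a plakin that grips the keratin filaments. In skin the cadherins are layered: Dsg3 and Dsc3 belong to the lower epidermis, Dsg1 and Dsc1 to the differentiating upper layers, and Dsg2 is the desmoglein found in the widest range of tissues.

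Tags at the 3′ end of messenger RNA were counted by unique molecular identifiers (UMIs), with totals of 15480075 to 29074855 UMIs a library. Levels are given as CPM, tag counts relative to the total of the library, after scaling for composition by the trimmed mean of M values (TMM). They were not compared between genes, because tags at 3′ ends are captured unequally from gene to gene. Counts of a member in a single library ran from 5 for Dsc1 to 7152 for Dsp, so values of Dsc1 and Dsg2 rest on the fewest tags, 760 and 1925 in all 16 libraries. Cd34, the gene behind the sort, was higher in the CD34+ than in the CD34- fraction by 3.97 ± 0.12 (SE) on the log2 scale in untreated cultures, which only checks the labels; its counts are nearly those of the overlapping antisense Gm16897. The basal keratins Krt5 and Krt14 were at 910 to 1250 CPM and at 4601 to 5717 CPM in every library. Of the markers of other cell types, fibroblast genes summed to at most 1.60 CPM and immune genes to at most 3.38 CPM in any library. Melanocyte genes summed to 28.0 to 36.1 CPM, nearly all of it Mitf and Pmel, whose counts follow those of the overlapping Gm15531 and Dgka, while Tyr and Tyrp1 stayed at or below 0.360 and 0.0710 CPM. Among endothelial genes Pecam1 was at 1687 to 2055 CPM in every library, whereas Kdr and Tek did not exceed 0.360 and 0.274 CPM.

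Both fractions of untreated organoids were first compared to ask how desmosome transcripts differ between HFSCs and progenitors. All 10 genes differed: 9 were lower in CD34+ than in CD34- cells, and Dsg2 alone among the members was higher (edgeR's quasi-likelihood test, Benjamini-Hochberg adjusted p under 0.05 over all genes tested). Of all genes tested, 32.1% passed the same threshold, 16.1% as higher and 16.1% as lower. With N1-AcSpd the same count was found, 9 lower and 1 higher, where 33.3% of all genes passed, 16.5% higher and 16.8% lower. For all 10 genes the 4 libraries of one fraction lay entirely above those of the other in untreated and in treated cultures, as 32.2% and 34.4% of all genes did. In each of the 4 mice every gene differed in the direction of the group. The sizes ranged widely, from 0.16 for Pkp3 to 2.83 for Dsc1 on the log2 scale in untreated cultures. The median log2 fold change of the 10 genes was -0.45 in untreated and -0.44 in treated cultures, against 0.022 and -0.0068 over all genes tested. Bulk RNA does not tell a smaller share of cells expressing a gene from less RNA of it per cell.

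**Figure D1:**
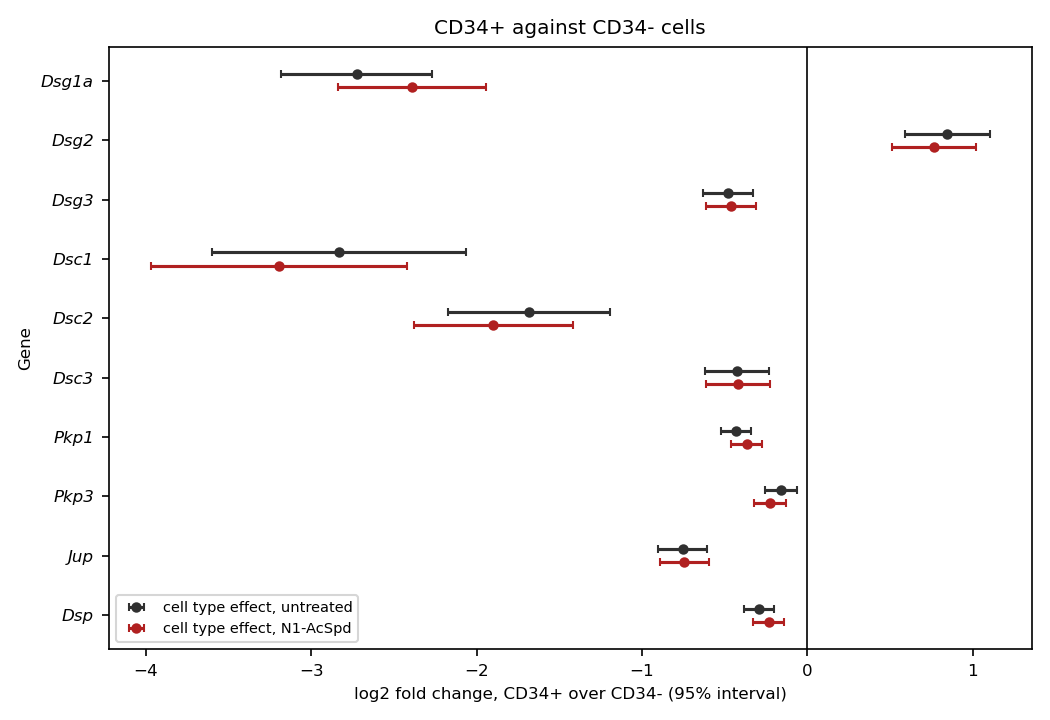
Log2 fold change of each desmosome gene in CD34+ over CD34- cells (horizontal axis) in untreated (black) and N1-AcSpd-treated (red) organoids, with 95% confidence intervals from the fit of all 16 libraries, 4 a group. Dsg1a, Dsc1 and Dsc2 lie far to the left, Dsg2 is the only one to the right of 0, and no interval reaches 0.

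The 6 cadherins lie side by side on chromosome 18 in a cluster of 9 protein-coding genes that spans 643.592 kb (GRCm38/mm10, GENCODE vM21 annotation). Along the chromosome the desmocollins come first, on the minus strand: Dsc3 at chr18:19960930-20002351, Dsc2 at chr18:20030633-20059554 and Dsc1 at chr18:20084184-20114871. The desmogleins follow on the plus strand, with Dsg1a at chr18:20310811-20343350, Dsg3 at chr18:20510274-20547459 and Dsg2 at chr18:20558074-20604521. Dsg1c, Dsg1b and Dsg4 make up the rest of the cluster. In this order the log2 fold changes in untreated CD34+ over CD34- cells were -0.42 for Dsc3, -1.68 for Dsc2, -2.83 for Dsc1, -2.72 for Dsg1a, -0.48 for Dsg3 and 0.85 for Dsg2. The genes in the middle of the cluster thus fell most, and the one at its end on the desmoglein side rose.

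Dsg1a encodes the desmoglein of the upper epidermis, the target of the autoantibodies of pemphigus foliaceus. Its level in untreated CD34- cells of mice 1 to 4 was 17.3, 16.4, 23.1 and 30.7 CPM, against 2.85, 3.57, 3.47 and 3.34 CPM in CD34+ cells. With N1-AcSpd the values were 28.2, 18.6, 21.5 and 18.7 CPM in CD34- and 3.94, 4.27, 5.09 and 3.29 CPM in CD34+ cells. Every CD34- library therefore stood well above every CD34+ library, and the CD34- libraries also scattered most, with mouse 4 the highest when untreated and mouse 1 the highest when treated. CD34+ cells held 6.61-fold less Dsg1a in untreated cultures (log2 fold change -2.72 ± 0.21 SE, n = 4 a group, edgeR adjusted p = 9.44e-07) and 5.24-fold less in treated ones (-2.39 ± 0.21, adjusted p = 1.67e-06). Dsg1a has near-identical copies, Dsg1b and Dsg1c, and reads may have been split among them by the authors' counting. Dsg1b also fell in untreated CD34+ cells (log2 fold change -2.69 ± 0.24 SE), and the 3 copies summed gave a call in the same direction in both comparisons.

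Dsg3, the desmoglein of the lower epidermis and the target antigen of pemphigus vulgaris, differed much less. Untreated CD34- cells held 32.8, 31.0, 35.0 and 36.4 CPM and untreated CD34+ cells 22.2, 23.8, 25.8 and 25.3 CPM. In treated cultures the values were 34.8, 33.4, 33.7 and 39.4 CPM in CD34- and 26.8, 24.8, 27.1 and 23.8 CPM in CD34+ cells. The fractions did not overlap, and the spread within each was small beside the gap. The fall in CD34+ cells was 1.39-fold (log2 fold change -0.48 ± 0.07, adjusted p = 0.00016) in untreated and 1.38-fold (-0.46 ± 0.07, adjusted p = 0.000174) in treated cultures.

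Dsg2 was the exception among the members. It was at 3.87, 5.11, 3.42 and 4.74 CPM in untreated CD34- and at 6.54, 8.45, 7.48 and 8.33 CPM in untreated CD34+ cells of mice 1 to 4. After N1-AcSpd the CD34- libraries held 4.13, 4.65, 4.07 and 4.14 CPM and the CD34+ libraries 7.24, 7.06, 6.57 and 8.05 CPM. All 8 CD34+ libraries were above all 8 CD34- libraries. The rise in CD34+ cells was 1.80-fold in untreated (log2 fold change 0.85 ± 0.12, adjusted p = 0.000114) and 1.70-fold in treated cultures (0.77 ± 0.12, adjusted p = 0.000216). Dsg2 shares exons with the antisense gene Gm16090, which had 1754 UMIs to Dsg2's 1925 with a Pearson r of 0.997 between their counts over the 16 libraries. Without strand, which is not stated for the counting, transcripts of the pair cannot be told apart, so the values given for Dsg2 are those of the locus. The ratio of counts differed with the fraction: the log2 ratio of Dsg1a counts to those of the Dsg2 locus was 2.32 ± 0.50 (SD, n = 4) in untreated CD34- and -1.21 ± 0.087 in untreated CD34+ cells. That ratio needs no scaling between libraries, and its values did not overlap between the fractions.

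**Figure D2:**
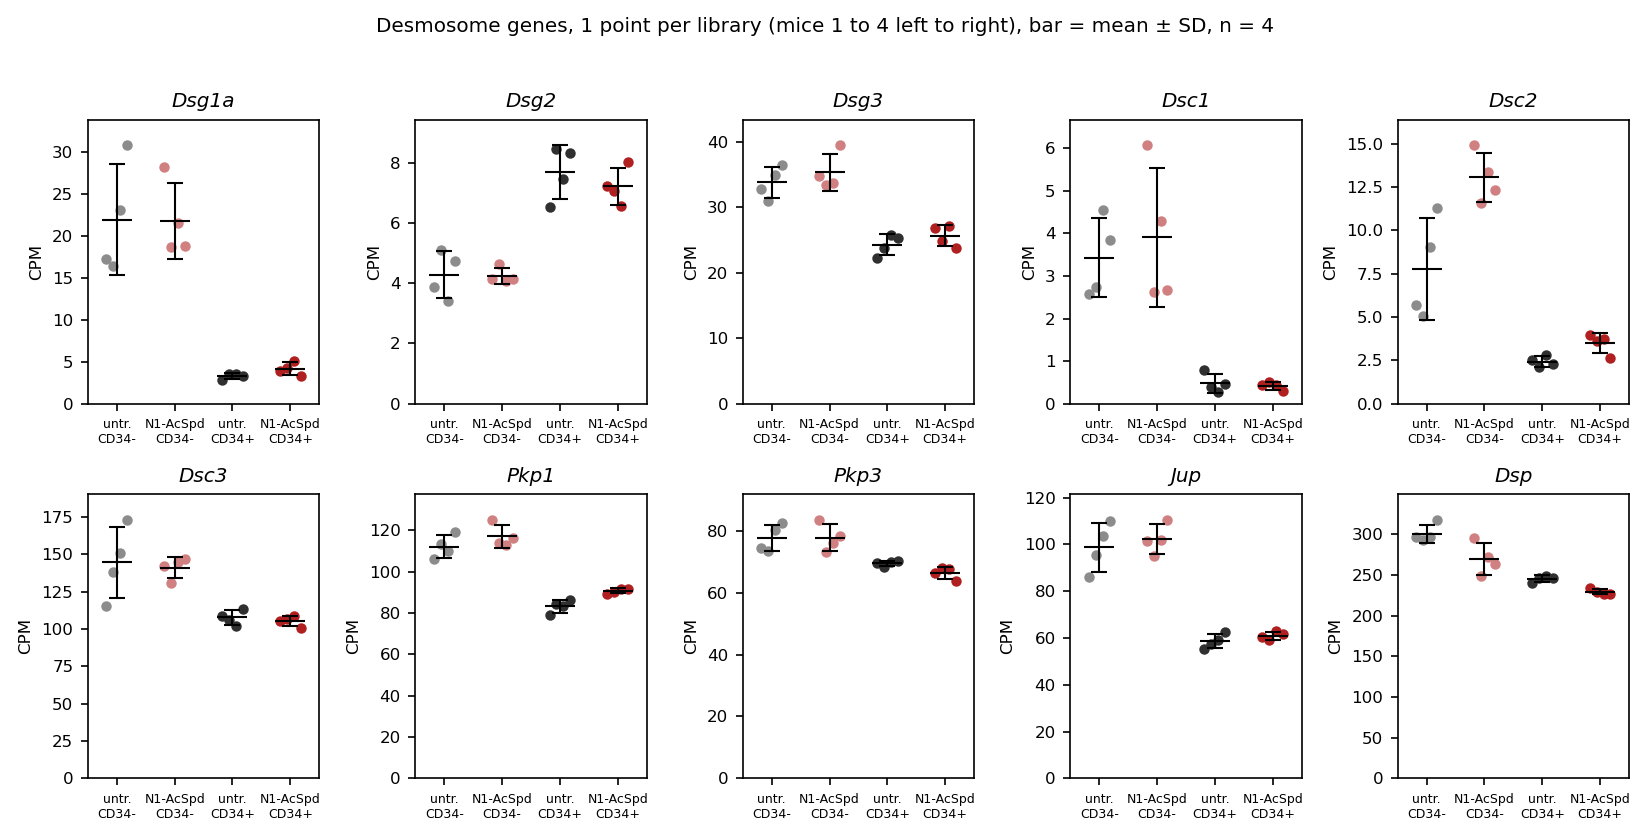
Level of each desmosome gene in CPM (vertical axis, from 0, own scale for each gene) in the 4 groups, 1 point a library with mice 1 to 4 from left to right, and bars for mean ± SD (n = 4). Within untreated and within treated cultures the CD34+ points are clear of the CD34- points in every panel, below them for 9 genes and above them for Dsg2, and Dsc2 shows a further rise with N1-AcSpd.

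Dsc1, the desmocollin of the upper epidermis, was the member with the steepest fall and the fewest tags. Untreated CD34- cells held 2.58, 2.75, 4.55 and 3.84 CPM and untreated CD34+ cells 0.797, 0.384, 0.271 and 0.463 CPM. In treated cultures the CD34- values were 6.07, 2.63, 4.30 and 2.67 CPM and the CD34+ values 0.446, 0.512, 0.430 and 0.294 CPM. The highest CD34+ library, at 0.797 CPM, was far below the lowest CD34- library, at 2.58 CPM. Among the treated CD34- libraries mouse 1 was the highest, at 6.07 CPM, and mouse 3 the next, at 4.30 CPM. CD34+ cells were 7.12-fold lower when untreated (log2 fold change -2.83 ± 0.36, adjusted p = 4.3e-05) and 9.16-fold lower when treated (-3.20 ± 0.36, adjusted p = 1.31e-05).

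Dsc2, the desmocollin expressed in most epithelia, lay between the extremes. Untreated CD34- cells of mice 1 to 4 held 5.68, 5.05, 9.05 and 11.3 CPM, and untreated CD34+ cells 2.50, 2.08, 2.82 and 2.26 CPM. The treated CD34- libraries held 14.9, 11.6, 13.4 and 12.3 CPM and the treated CD34+ libraries 3.97, 3.59, 3.74 and 2.64 CPM. The 4 groups ran in the order untreated CD34+, treated CD34+, untreated CD34- and treated CD34-, and only the first and second of these overlapped. CD34+ cells were 3.21-fold lower in untreated (log2 fold change -1.68 ± 0.23, adjusted p = 7.87e-05) and 3.73-fold lower in treated cultures (-1.90 ± 0.22, adjusted p = 1.95e-05).

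Dsc3, the desmocollin of the basal layer, fell least of the 3. Its values were 115.8, 138.5, 151.2 and 173.0 CPM in untreated CD34- and 109.0, 106.3, 102.2 and 113.8 CPM in untreated CD34+ cells. In treated cultures they were 141.9, 130.8, 144.8 and 146.9 CPM in CD34- and 105.1, 107.0, 109.1 and 100.8 CPM in CD34+ cells. The groups were separate, but mouse 1 of the untreated CD34- group was close to the highest CD34+ library. The fold change was 1.34 in both conditions (log2 fold change -0.42 ± 0.09 in each, adjusted p = 0.00257 untreated and 0.00241 treated). The ratio of Dsc1 to Dsc3 counts moved from a mean log2 of -5.41 ± 0.25 (SD, n = 4) in untreated CD34- to -7.84 ± 0.58 in untreated CD34+ cells, again with no overlap.

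Plaque genes, which sit on other chromosomes than the cadherins, fell by less than Dsg1a, Dsc1 and Dsc2. Plakoglobin, encoded by Jup, is shared between desmosomes and adherens junctions, and it changed most of the plaque genes. Untreated CD34- cells held 85.9, 95.3, 103.7 and 110.2 CPM of it and untreated CD34+ cells 55.5, 57.4, 59.0 and 62.4 CPM. With N1-AcSpd the values were 101.4, 94.9, 102.1 and 110.4 CPM in CD34- and 60.3, 59.2, 63.1 and 61.5 CPM in CD34+ cells. Every CD34+ library was far below every CD34- library. The fall was 1.69-fold in untreated (log2 fold change -0.75 ± 0.07, adjusted p = 2.46e-06) and 1.68-fold in treated cultures (-0.74 ± 0.07, adjusted p = 2.52e-06).

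Desmoplakin (Dsp), the link to keratin filaments, had 296.6, 293.1, 296.3 and 317.6 CPM in untreated CD34- and 239.8, 246.3, 249.3 and 246.9 CPM in untreated CD34+ cells. Treated CD34- cells held 295.2, 249.2, 272.0 and 263.3 CPM and treated CD34+ cells 233.8, 229.8, 227.3 and 227.0 CPM. The CD34+ values were lower in each mouse, and tighter than the CD34- values. In CD34+ cells Dsp was 1.23-fold lower when untreated (log2 fold change -0.29 ± 0.04, adjusted p = 0.000151) and 1.18-fold lower when treated (-0.23 ± 0.04, adjusted p = 0.000746). The log2 ratio of Dsp to Jup counts rose from 1.61 ± 0.13 (SD, n = 4) to 2.07 ± 0.059 between untreated CD34- and CD34+ cells, with no overlap.

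The bases before the starts of these plaque genes are shown because Jup and Dsp fell together in CD34+ cells while their ratio changed, and the RefSeq promoter table holds 2 of the 10 members. Each run is the 250 bases upstream of the RefSeq transcript start in build GRCm38.p6, Jup at chr11:100397791-100398040 on the minus strand and Dsp at chr13:38151044-38151293 on the plus strand, in lower case with matches to CACCC in capitals.
Jup: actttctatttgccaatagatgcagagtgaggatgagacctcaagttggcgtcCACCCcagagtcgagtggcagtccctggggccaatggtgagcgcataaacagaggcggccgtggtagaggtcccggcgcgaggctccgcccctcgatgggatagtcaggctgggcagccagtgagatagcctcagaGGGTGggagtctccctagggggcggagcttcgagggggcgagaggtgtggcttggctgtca
Dsp: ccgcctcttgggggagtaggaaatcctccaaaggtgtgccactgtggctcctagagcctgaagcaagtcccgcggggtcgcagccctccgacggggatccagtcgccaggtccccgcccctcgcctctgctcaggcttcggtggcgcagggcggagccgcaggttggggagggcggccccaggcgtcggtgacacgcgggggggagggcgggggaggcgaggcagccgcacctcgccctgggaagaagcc
The letters CACCC, the core bound by Krüppel-like factors such as Klf4, were found on either strand at 2 places in Jup and 0 in Dsp, and 52.0% of the 32851 windows of this length in the table hold them. The grainyhead-like letters AACNNGTT and the AP-1 letters TGANTCA were in neither, and 3.64% and 6.75% of the windows hold them. GC content was 62.0% for Jup and 72.4% for Dsp, against a median of 52.4% over all windows. A match is a run of letters and was not tested as a binding site.

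Plakophilins link the plaque sideways and bind desmoplakin. Pkp1 was at 106.0, 113.4, 110.0 and 119.4 CPM in untreated CD34- and at 79.1, 84.4, 83.4 and 86.4 CPM in untreated CD34+ cells. Treated cultures gave 124.9, 113.8, 113.1 and 116.4 CPM in CD34- and 89.3, 90.2, 91.8 and 91.8 CPM in CD34+ cells. Both CD34+ groups lay below both CD34- groups. The fall in CD34+ cells was 1.35-fold untreated (log2 fold change -0.43 ± 0.04, adjusted p = 4.83e-06) and 1.29-fold treated (-0.37 ± 0.04, adjusted p = 1.67e-05).

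Pkp3 differed least of the 10 genes. Untreated CD34- cells held 74.6, 73.7, 80.2 and 82.4 CPM and untreated CD34+ cells 69.6, 68.3, 70.1 and 70.2 CPM. In treated cultures the CD34- values were 83.5, 73.3, 75.9 and 78.3 CPM and the CD34+ values 66.5, 68.1, 67.7 and 63.8 CPM. The groups did not overlap, yet the nearest untreated libraries, at 73.7 and 70.2 CPM, were close. Pkp3 was 1.12-fold lower in untreated CD34+ cells (log2 fold change -0.16 ± 0.05, adjusted p = 0.0146) and 1.17-fold lower in treated ones (-0.22 ± 0.05, adjusted p = 0.00147). When libraries were scaled by their totals alone, Pkp3 kept its direction and lost the call in both comparisons, leaving 9 of 10 members; that scaling moved the median of all genes to 0.14 untreated and 0.11 treated. Without mouse 3 or without mouse 4 the untreated call of Pkp3 was lost as well, again leaving 9 members. Calls over all genes also dropped there, from 6123 in the main fit to 4767 without mouse 3 and 4506 without mouse 4. The log2 ratio of Pkp1 to Pkp3 counts, which no scaling touches, was 0.53 ± 0.070 (SD, n = 4) in untreated CD34- and 0.26 ± 0.056 in untreated CD34+ cells, without overlap.

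A threshold on size as well as on p separates the members into strong and mild changes. With a log2 fold change beyond 0.5 required in either direction, Dsg1a, Dsg2, Dsc1, Dsc2 and Jup remained in both comparisons, 5 of 10, where 15.3% of all genes passed in untreated and 16.8% in treated cultures. Dsg3, Dsc3, Pkp1, Pkp3 and Dsp changed by less than this.

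Genes that work with or beside desmosomes were counted in the same fits, where 32.1% of all genes passed in untreated and 33.3% in treated cultures. Of 8 tested genes of a list of 9 other desmosome and cornified junction genes, 5 fell in CD34+ cells in each comparison and 0 rose. These were Dsg1b, the plakins envoplakin (Evpl, -1.80 ± 0.15 log2 fold change ± SE, untreated) and periplakin (Ppl, -1.32 ± 0.10), corneodesmosin (Cdsn, -2.42 ± 0.22), and the tetraspan desmosomal protein Perp (-0.37 ± 0.05). The plakophilins Pkp2 (-0.66 ± 0.27, adjusted p = 0.0765) and Pkp4 (-0.10 ± 0.12, adjusted p = 0.582) did not pass, nor did Dsg1c, which had UMIs in 3 CD34- libraries and none elsewhere. Dsg4 had too few UMIs to test. The median log2 fold change of the 8 was -1.56 untreated and -1.44 treated.

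Adherens junction genes, which anchor actin rather than keratin, moved both ways. Of 10 tested, 4 fell and 2 rose in untreated CD34+ cells, and 5 fell and 2 rose in treated ones, with medians of -0.17 and -0.15. E-cadherin (Cdh1) fell by 0.58 ± 0.07 (SE) on the log2 scale in untreated cultures, while afadin (Afdn) rose by 0.29 ± 0.05. Afdn overlaps the pseudogene Gm3355 without shared exons (41031 UMIs to its 56002, Pearson r of 0.762 between counts). Catenin α1 (Ctnna1) was at 0.01 ± 0.05 (adjusted p = 0.921). β-catenin (Ctnnb1) rose by 0.27 ± 0.05, but its counts are nearly those of the overlapping gene Ulk4 and cannot be told apart from them.

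Of 10 tested regulators and proteases of desmosomes in a list of 11, 6 fell and 2 rose in untreated CD34+ cells, and 6 fell and 3 rose in treated ones. The falls were the transcription factors Grhl1 (-1.57 ± 0.15, log2 fold change ± SE, untreated), Grhl3 (-2.43 ± 0.18) and Klf4 (-1.01 ± 0.12), the kallikreins Klk5 (-3.06 ± 0.35) and Klk7 (-2.91 ± 0.23), which cut desmosomal proteins in the shedding of the outermost skin, and Spink5 (-2.26 ± 0.26), which encodes their inhibitor. The rises were Trp63 (0.32 ± 0.06), the basal keratinocyte factor p63, and Adam17 (0.23 ± 0.05), a sheddase. Adam17 shares exons with the opposite-strand gene Iah1, which had 7996 UMIs to its 6624. Their counts had a Pearson r of 0.911 over the 16 libraries, and strand use is not stated. Prkca, a kinase that loosens desmosomal adhesion, rose in treated cultures only by this threshold (0.50 ± 0.17, against 0.29 ± 0.17 untreated, with an interaction that did not pass). Adam10 did not pass in either (-0.20 ± 0.08, adjusted p = 0.078 untreated), and Klk14 had too few UMIs to test.

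Markers of the state of the cells moved beside the desmosome genes. All 10 keratinocyte differentiation markers fell in CD34+ cells in both comparisons, with medians of -1.61 untreated and -1.69 treated, and their summed level was 1049 to 1405 CPM in untreated CD34- against 302 to 329 CPM in untreated CD34+ libraries. The largest of them were Krtdap (-2.38 ± 0.16 untreated) and Sbsn (-1.41 ± 0.09), the latter counted almost identically with the overlapping Tmem147os. Of 7 HFSC markers 5 rose in both comparisons, among them Krt15 (3.35 ± 0.15 untreated) and Sox9 (1.08 ± 0.14). The 7 include Cd34, whose rise was fixed by the sort. Among 5 basal keratinocyte markers 2 fell and 1 rose in each, with medians of -0.096 and -0.029. Beside these counts, 32.1% of all genes passed in untreated and 33.3% in treated cultures. The part of differentiating cells in the desmosome differences was not tested.

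**Figure D3:**
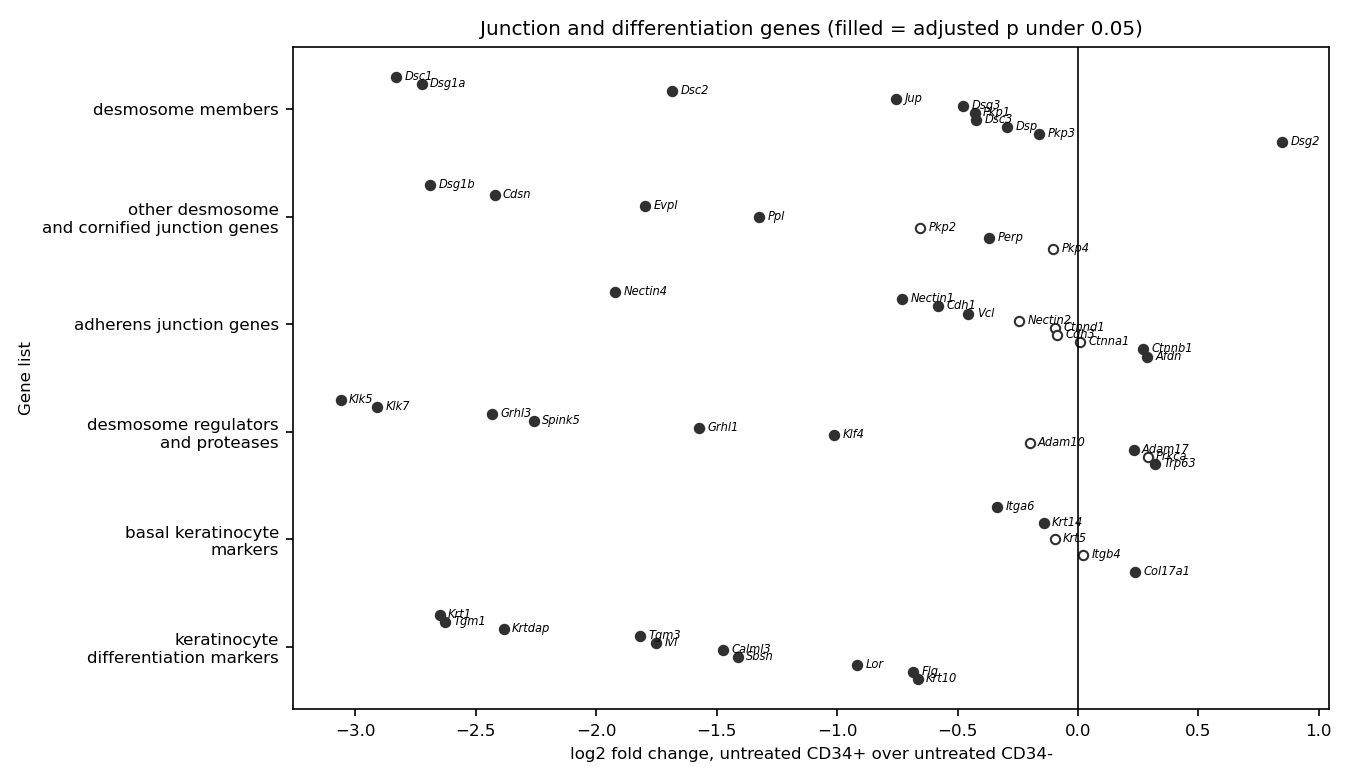
Log2 fold change in untreated CD34+ over untreated CD34- cells (horizontal axis) of the tested genes of 6 lists (vertical axis, 1 point a gene, spread for legibility), filled where the adjusted p was under 0.05 and open where it was not; Dsg1c, at 0 in every CD34+ library, is left out. The kallikreins Klk5 and Klk7, Grhl3 and several differentiation markers such as Krtdap lie far to the left, as Dsg1a and Dsc1 do, and adherens junction genes lie on both sides of 0.

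N1-AcSpd was then compared with no treatment within each fraction, to ask whether desmosome transcripts respond to the polyamine. In CD34- cells 0 of the 10 genes passed, where 0.614% of all genes did (edgeR), with 2 members at an unadjusted p under 0.05 (13.6% of all genes) and 2 called by DESeq2 (2.93% of all genes). In CD34+ cells 0 passed, where 0.325% of all genes did, with 3 members at an unadjusted p under 0.05 (13.2% of all genes) and 0 called by DESeq2 (2.22% of all genes). These comparisons share their groups with the comparisons of fractions above. Averaged over both fractions, 2 members passed, where 4.87% of all genes did: Dsc2 was higher and Dsp lower after N1-AcSpd. The median log2 fold change of the 10 was 0.030 in this average, against -0.0077 over all genes.

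Dsc2 rose by 0.64 ± 0.16 (SE) on the log2 scale, or 1.56-fold, in the average over fractions (edgeR adjusted p = 0.0346), and was higher after treatment in 4 of 4 mice. Within CD34- cells the difference was 0.75 ± 0.21 (adjusted p = 0.132), with the lowest treated library at 11.6 CPM and the highest untreated one at 11.3 CPM. Within CD34+ cells it was 0.53 ± 0.23 (adjusted p = 0.344), again higher in 4 of 4 mice, with treated and untreated libraries overlapping. The untreated CD34- libraries were themselves uneven, with mice 1 and 2 lower than mice 3 and 4. Dsp fell by 0.13 ± 0.03 on the log2 scale, or 1.09-fold, in the average (adjusted p = 0.0303), and was lower in 4 of 4 mice. In CD34- cells Dsp differed by -0.16 ± 0.04 (adjusted p = 0.117) and in CD34+ cells by -0.098 ± 0.04 (adjusted p = 0.35).

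The averaged calls for Dsc2 and Dsp were not stable to the choice of libraries. Both were kept without mouse 2, 3 or 4 in the untreated CD34- group, without mouse 2 in the treated CD34- group, and without mouse 4 in the treated CD34+ group. Leaving out any of the other 11 libraries left 0 or 1 member called. Leaving out a whole mouse left 0 for mice 2 and 3 and 1 for mice 1 and 4. Calls over all genes, 928 in the main fit, were 175, 181, 216 and 277 without mice 1, 2, 3 and 4. Without single libraries they were 524 to 1062, so the loss of calls was not particular to the members. In all of these fits Dsc2 stayed positive, between 0.51 and 0.81, and Dsp negative, between -0.16 and -0.10.

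Pkp1 was the next of the members, at 0.093 ± 0.03 in the average (adjusted p = 0.0917) and higher in 4 of 4 mice. In CD34+ cells its treated libraries, at 89.3 to 91.8 CPM, were all above the untreated ones at 79.1 to 86.4 CPM, but the difference of 0.12 ± 0.04 missed the threshold (adjusted p = 0.242). Groups of Pkp3 and Dsp were separate in CD34+ cells too, both lower after treatment, so 3 of 10 members had separate groups there, where 6.81% of all genes did. In CD34- cells Dsc2 was the 1 member with separate groups, where 9.05% of all genes had them. Intervals for the others show what could have been missed: the 95% interval of the average effect ran from -0.15 to 0.46 for Dsg1a, from -0.63 to 0.64 for Dsc1, and from -0.051 to 0.16 for Jup.

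**Figure D4:**
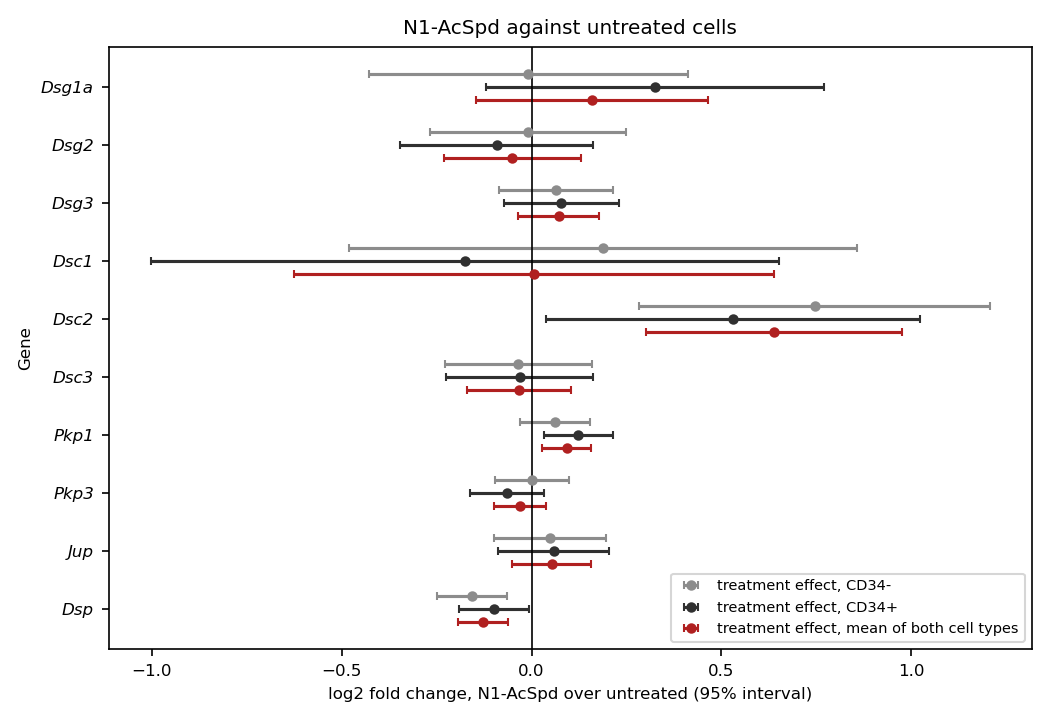
Log2 fold change of each desmosome gene after N1-AcSpd over untreated (horizontal axis), with 95% confidence intervals, in CD34- cells (grey), in CD34+ cells (black) and averaged over both (red), 4 libraries a group. The red interval of Dsc2 lies to the right of 0 and that of Dsp to the left, that of Pkp1 is right of 0 but its adjusted p missed the threshold, and those of the other 7 genes reach across 0.

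Beside Dsc2, some genes of the other lists passed for the average effect, where 4.87% of all genes did. In the average over fractions 3 of 10 differentiation markers rose and 0 fell, namely Ivl (0.60 ± 0.10, adjusted p = 0.00505), Tgm1 (0.58 ± 0.14, adjusted p = 0.0304) and Sbsn (0.25 ± 0.06, adjusted p = 0.0346). Counts of Tgm1 are nearly those of the overlapping antisense Gm49067 and cannot be told apart from them. Of the 10 tested regulators and proteases 1 rose, Grhl3 (0.60 ± 0.13, adjusted p = 0.0184), and 0 fell. Among adherens junction genes 2 fell, Ctnnb1 (-0.20 ± 0.03, adjusted p = 0.00797) and Ctnnd1 (-0.24 ± 0.04, adjusted p = 0.00657). Counts of Ctnnb1 cannot be told apart from those of Ulk4, as above. Ctnnd1 shares exons with Gm28635 on the same strand, which had 19925 UMIs to its 6604 (Pearson r of 0.763 between counts). How tags were divided between Ctnnd1 and Gm28635 is not known. Of the other desmosome and cornified junction genes 0 of 8 passed by edgeR, with 3 at an unadjusted p under 0.05 (20.8% of all genes), and Cdsn was nearest at 0.54 ± 0.15 (adjusted p = 0.054). Of the 7 HFSC markers 2 fell, Krt15 (-0.37 ± 0.10, adjusted p = 0.0449) and Nfatc1 (-0.20 ± 0.05, adjusted p = 0.0365). The calls of these other genes were not followed when libraries were left out. Whether these changes have a part in the rise of Dsc2 was not tested.

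Whether N1-AcSpd acted differently in the fractions was tested as an interaction. By edgeR 0 of 10 members passed, as did 0% of all genes, and 0 members were at an unadjusted p under 0.05 (4.19% of all genes) or called by DESeq2 (0.378% of all genes). The estimates ran from -0.36 for Dsc1 to 0.33 for Dsg1a, with intervals from -1.43 to 0.70 and from -0.28 to 0.94, so differences within these intervals were not excluded by 4 libraries a group.

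Within groups the members also varied together from library to library. After the group mean was taken from each log2 CPM value, 39 of the 45 pairs of members had a positive Pearson r over the 16 libraries and 24 had an r above 0.5. The highest were Dsc3 with Jup at 0.87, Dsg1a with Pkp3 at 0.84 and Dsc2 with Pkp3 at 0.83. Dsg2 stood apart, with a median r of -0.13 to the other 9 genes and a lowest value of -0.48, with Dsc1. The points share their libraries, mice and depth, and the values are a description. Pairs of other genes were not counted, so these shares are not known to be particular to the members. The spread itself was widest in untreated CD34- cells for Dsg1a, Dsg2, Dsc2, Dsc3, Pkp1 and Jup, with an SD of 0.54 on the log2 CPM scale for Dsc2 there and of 0.18 in untreated CD34+ cells.

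**Figure D5:**
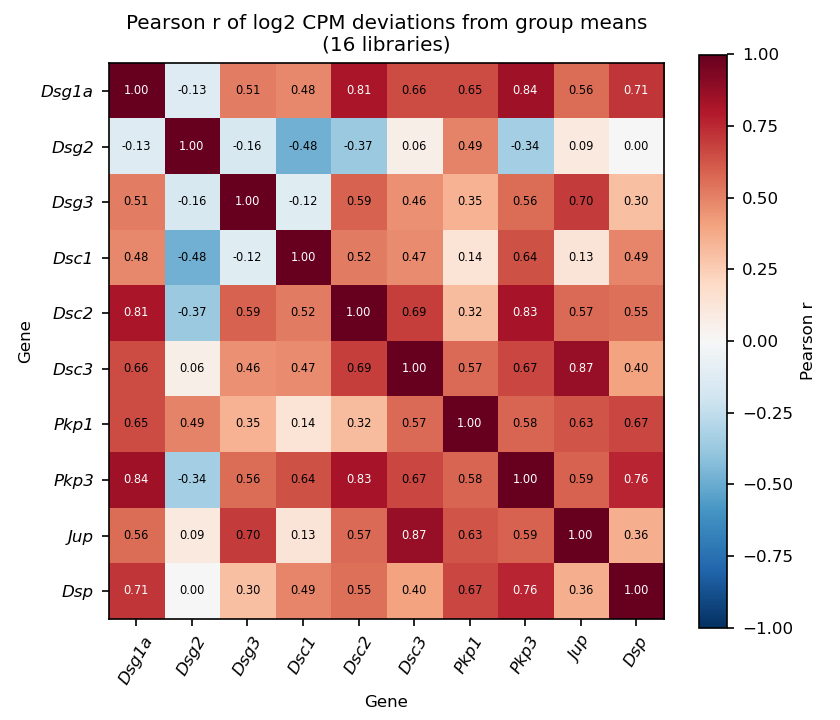
Pearson r between desmosome genes (both axes) of log2 CPM after subtraction of group means, over 16 libraries, coloured from -1 (blue) to 1 (red). All members except Dsg2 and the pair of Dsg3 and Dsc1 are joined by positive values, while the row of Dsg2 is near 0 or negative except for 0.49 with Pkp1.

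Over all 16 libraries, differences between groups included, each member was compared with 9419 other genes for likeness of pattern. Dsg1a was most like Krtdap (Pearson r = 0.996 of log2 CPM) and Sprr1b (0.995), and Dsc1 most like Elovl7 (0.987) and Casp14 (0.981). Dsc2 was closest to Alas1 (0.983) and Ephx3 (0.978), and Dsc3 to Arhgap17 (0.959) and Apoc4 (0.951). For Dsg3 the nearest were Tmem214 (0.978) and Smagp (0.973), and for Dsg2 they were Slc6a2 (0.972) and Dnal4 (0.969). Jup resembled Bpifc (0.990) and Rnf170 (0.984), Pkp1 resembled Dmkn (0.984) and Gltp (0.982), Pkp3 resembled Pdzk1ip1 (0.949) and Leprotl1 (0.942), and Dsp resembled Tent5a (0.947) and Stap2 (0.936). These values mostly carry the gap between the fractions, which 32.1% of all genes share in some direction, and say nothing of shared control.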

How the data were processed

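The deposited table holds raw counts of unique UMI tags per gene and library. The authors demultiplexed reads with FLEXBAR, pseudo-aligned them with Kallisto (0.45.0, per the processing notes) to mm10, assigned them with BEDTools and counted in R; annotation release and strand use are not given in the sources used here. Samples were pooled in 1 tube after reverse transcription. For the steps before it, such as culture, sorting and RNA isolation, no batch is named in the sources used here. All 16 columns matched a sample, leaving 0 unused; 156050 empty cells were read as 0, and 94 identifiers without a symbol held 0.125% of counts. The GENCODE vM21 annotation gave positions. Counts were tested in R 4.3.3 with edgeR 4.0.16 (quasi-likelihood, TMM, mean count of at least 5, 1 fit of 16 libraries, Benjamini-Hochberg over 19049 genes, adjusted p under 0.05), with DESeq2 1.42.0 and other settings as alternatives; the code was tested on simulated data. Log2 CPM used a prior count of 2 and ratios an offset of 0.5.

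The members and gene lists were chosen with earlier results of these data known; 84 of 88 listed genes were found, and Kit, Cd207, Cdh5 and Emcn were not analysed here. All members are named, as are the called or detected genes of the junction and regulator lists, up to 4 of each other list by mean count, and the 2 most alike genes per member (mean count of at least 50). Tgm1, Ctnnd1, Tyr and Tyrp1 were named after their values were seen. Of 4 tested melanocyte markers 1 was called (Mitf, counted much as the overlapping Gm15531, higher in untreated CD34+ cells). Of 2 fibroblast markers 1 was called (Col1a2, lower in CD34+ cells in both conditions). Of 2 immune markers it was 1 (Cd68, lower in treated CD34+ cells) and of 1 endothelial marker 1 (Pecam1, lower in both). Of all genes, 32.1% passed in untreated and 33.3% in treated cultures, so these small counts say little of the cell types.

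Replicate numbers mark the same animal, so they pair the samples. Deviations of same-mouse libraries from group means correlated by 0.0133 on average (-0.0689 to 0.0858, 24 pairs), against -0.0044 between different mice. These values by themselves do not show the pairing, and the main fit carried no term for the mouse. No libraries were copies (lowest chi-square per degree of freedom 25.4 over 24 within-group pairs). p-values rest on the spread between mice.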

Additional observations from a re-analysis of the deposited data

Results flagged for a closer look

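In 2 of the 40 sets of 4 libraries examined (10 genes in 4 groups), 1 library stood apart, its gap to the nearest of the others taking up more of the range than Dixon's critical value for 4 values allows; chance gives about 1 in 20 sets. Dsg2 in treated CD34- cells was at 4.65 CPM in mouse 2 and at 4.07 to 4.14 CPM in the others, a gap of 0.872 of the range. Dsp in untreated CD34- cells was at 317.6 CPM in mouse 4 and at 293.1 to 296.6 CPM in the others, a gap of 0.857 of the range.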

How the results depend on the processing

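The cell type calls of all 10 members held under DESeq2's size factors, DESeq2 itself, other filters, fits of the compared groups only and the paired fit with mouse as a block (10 in both); library totals gave 9 in both, and leaving out mice or libraries gave 9 to 10 untreated and 10 treated. Requiring a log2 fold change beyond 0.5 left 5 in both. For treatment in CD34- cells DESeq2 called 2 (Dsc2, Dsp) and leaving out libraries gave 0 to 1 (Dsp, without the treated CD34- library of mouse 1). For the average effect the count of 2 became 0 with no filter, 1 (Dsc2) with the size rule and 3 (with Pkp1) by DESeq2. It was 0 to 2 without single mice or libraries. The cause of these differences was not tested. The paired fit gave 2 here and changed no call of a member.

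Over all genes, library totals moved the split of calls from 3059 higher of 6123 to 4862 of 6621 untreated and from 3147 of 6347 to 4794 of 6697 treated. Calls in CD34- cells, 117, became 558 by DESeq2, 351 with the block, 35 unfiltered, 27 with the size rule and 0 in the fit of the compared groups only; in CD34+ cells 62 became 423, 152, 35, 19 and 23. The average went from 928 to 1585, 1551, 445 and 94 in the same order without the last fit. The interaction went from 0 to 72 by DESeq2, and the size rule left 2913 and 3197 cell type calls. Leaving out mice or libraries gave 4506 to 6211 cell type calls untreated and 4927 to 6369 treated. For treatment it gave 4 to 158 calls in CD34- cells and 175 to 1062 in the average.

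Reversed signs were all of values that passed no threshold. In CD34- cells Dsg1a became 0.0053 with the block and 0.013 with its copies summed, Dsg2 0.0054 by DESeq2 and 0.0010 with the block, and Pkp3 -0.0021 unfiltered, -0.0014 by DESeq2 and -0.0021 in the fit of the compared groups. With the block Dsc3 became -0.00089 in the interaction and Dsc1 -0.025 in the average. Leaving out mice or libraries gave, for treatment in CD34- cells, -0.26 to 0.27 for Dsg1a, -0.10 to 0.083 for Dsg2, -0.22 to 0.39 for Dsc1, -0.13 to 0.062 for Dsc3, -0.054 to 0.033 for Pkp3 and -0.013 to 0.10 for Jup. In CD34+ cells it gave -0.37 to 0.17 for Dsc1 and -0.069 to 0.017 for Dsc3, and in the average -0.10 to 0.0021 for Dsg2, -0.14 to 0.18 for Dsc1 and -0.080 to 0.029 for Dsc3. In the interaction it gave -0.17 to 0.019 for Dsg2, -0.042 to 0.089 for Dsg3, -0.69 to 0.36 for Dsc1, -0.093 to 0.11 for Dsc3 and -0.047 to 0.071 for Jup. Depth limits Dsc1 most, with as few as 5 UMIs in a library. Summing the Dsg1 copies and taking Gm16090 for Dsg2 were chosen after seeing the data.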
